A study of Mus musculus with 14 samples.

Results

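The cytosolic ribosomal protein genes were taken as the symbols that join Rpl, Rps or Rplp to a number and, in some, a final a, l or x, provided that they reached 1 CPM (counts scaled to a fixed library total) in at least 3 of the 14 samples. Of 23284 gene symbols counted, 80 matched and 73 passed, 43 for the large and 30 for the small ribosomal subunit. Of these, 69 lie on autosomes and were tested, and Rpl10, Rpl36a, Rpl39 and Rps4x lie on chromosome X, which the study's own analysis removed. RNA was sequenced from mouse forelimb buds of the NMRI strain at 2 stages, E10.0 with 30 somites and, later, E10.5 with 35. The controls, called wild type here, were Smad4+/+ embryos carrying PrxCreT/+, with 3 embryos per stage. The mutants, Smad4Δ/Δc, carried 1 constitutive null and 1 conditional Smad4 allele together with PrxCreT/+, with 4 embryos per stage. All 14 embryos therefore shared the Cre transgene, which recombines in limb bud mesenchyme and leaves Smad4 in the ectoderm and in other cells that do not express Cre. Each sample held both forelimb buds of 1 embryo.

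Ribosomes join a small subunit, which decodes the mRNA, to a large subunit, which forms peptide bonds, and each subunit is built from ribosomal RNA and a fixed set of proteins. Most of the proteins are needed in equal number, and their genes are expressed at high level in growing tissue and tend to change together. Their mRNAs start with a C and a tract of pyrimidines, the terminal oligopyrimidine (TOP) motif, through which mTORC1 and LARP1 set their translation. Myc-family factors drive transcription of these genes and of those for ribosome assembly. Mice with a reduced dose of a single ribosomal protein can have skeletal or pigmentation phenotypes, as Rpl38 mutants do. The question here was how far the genes as a group and one by one differed between genotypes and stages.

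Pyrimidine tracts at the annotated start were read from RefSeq promoters of GRCm38.p6, which held 63 starts for 53 of the 73 members. A run of at least 6 pyrimidines (C or T on the gene's strand) beginning with C within 10 bases of the start stood in 27 of the 63 starts (42.9%) and in 17.1% of the 32851 starts in the table. The lines below show from 10 bases before to 20 bases from the start for 5 members with a run that the tests below call between stages and for Rpl38 and Rps24, which they do not, with the run in capitals.
Rps2 (chr17:24720053-24720082, plus strand): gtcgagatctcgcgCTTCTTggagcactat
Rps12 (chr10:23787190-23787219, minus strand): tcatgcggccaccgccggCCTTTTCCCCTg
Rps21 (chr2:180257369-180257398, plus strand): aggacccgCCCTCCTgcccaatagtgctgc
Rpl12 (chr2:32961702-32961731, plus strand): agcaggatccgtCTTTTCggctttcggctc
Rpl10a (chr17:28328461-28328490, plus strand): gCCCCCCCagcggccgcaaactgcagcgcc
Rpl38 (chr11:114668570-114668599, plus strand): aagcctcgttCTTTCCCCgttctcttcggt
Rps24 (chr14:24490668-24490697, plus strand): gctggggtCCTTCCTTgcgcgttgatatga
A start may be annotated some bases from the one used in the limb bud, so absence of a run says only that these letters were not within the window. Among autosomal members with a promoter entry, the median log2 change from E10.0 to E10.5 in wild type was -0.20 for the 26 with a run and -0.15 for the 23 without. In the mutants it was -0.18 for each set.

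The libraries held 34066930 to 61691258 counted reads each. Smad4 fell from 161 ± 8.42 normalised CPM (SD, n = 3) in wild type to 39.7 ± 4.18 (n = 4) in mutants at E10.0, and from 166 ± 2.27 to 37.0 ± 3.43 at E10.5. These are log2 changes of -2.01 (SE 0.0832, adjusted p = 3.49e-98) and -2.16 (SE 0.0666, adjusted p = 2.82e-112, edgeR exact test). Rn45s, the precursor of ribosomal RNA, took 0.151% to 0.478% of counted reads in 10 libraries and 1.72% to 8.05% in mutant replicates 4 and 5 of both stages. These 4 libraries stood apart in several results below, which are given with and without them. All 9 limb mesenchyme markers, among them Prrx1, Tbx5 and Fgf10, passed the filter, with a summed level of 1440 to 2040 normalised CPM in the 14 samples.

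The share of the library on ribosomal protein genes was lower in every wild-type embryo at E10.5 than in any at E10.0. Their share of counted reads was 5.97%, 6.36% and 6.03% in the 3 wild-type embryos at E10.0. In those of the later stage it was 5.63%, 5.91% and 5.38%. In the mutants, replicates 1, 3, 4 and 5 gave 5.68%, 6.26%, 6.17% and 5.69% at E10.0, and replicates 1, 2, 4 and 5 gave 4.97%, 5.36%, 5.75% and 5.54% at E10.5. These shares were not tested. The wild-type stages did not overlap, and in the mutants the highest value at E10.5 lay above the lowest at E10.0. The summed level of the 69 autosomal members was 59500 ± 2960 normalised CPM (SD, n = 3) in wild type and 59200 ± 3190 (n = 4) in mutants at E10.0. At E10.5 it was 53400 ± 2030 and 52600 ± 4830. In bulk RNA, fewer cells of a type and less RNA per cell cannot be told apart, and a lower CPM is a lower share of the library, not a lower number of molecules per cell.

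**Figure D1:**
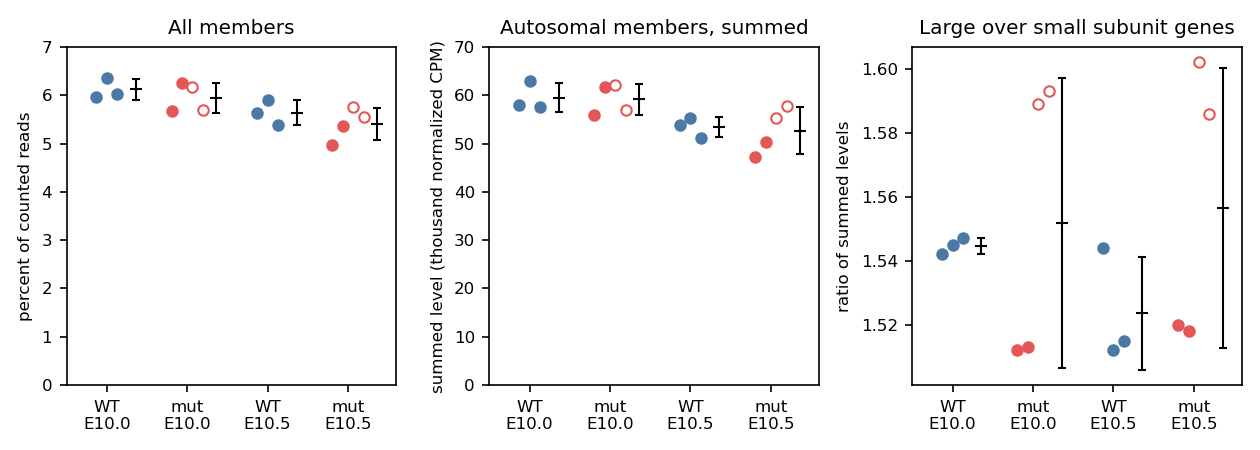
Left, percent of counted reads on the 73 members; centre, summed level of the 69 autosomal members in normalised CPM (the axis is in units of 1000); right, ratio of the summed levels of large to small subunit genes on an axis that does not start at 0. Points are embryos (blue, wild type; red, mutant; open, mutant replicates 4 and 5) and bars are mean ± SD of each group. The share runs from 4.97% to 6.36%, and the ratio is 1.586 to 1.602 in the 4 open points against 1.512 to 1.547 in the other 10.

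Levels differed between members more than between embryos. Per kilobase of coding sequence, over the 72 members with an annotated coding sequence, Rps24, a small subunit gene, stood highest with a mean of 3310 CPM per kb over the 14 samples. Rpl39, a very short protein of the large subunit's exit tunnel, followed with 2410, and Rpl23 with 2360. Reads were counted per gene, untranslated parts included, and divided by coding length alone. This can raise the value of a short coding sequence, such as that of Rpl39 (156 bases, mean 376 CPM), so the order is rough. The lowest were Rps27l, a p53-inducible paralogue of Rps27, with 402 CPM per kb, Rpl36 with 402, and Rplp2, a protein of the acidic stalk, with 612. The mean normalised level of Rps27l was 103 CPM and that of Rps2 was 1840 CPM, so no member was near the floor of 1 CPM.

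Matching the name pattern but not expressed by the rule were 7 symbols. Rpl26 and Rpl10l had 0 reads in all 14 libraries, which allows up to 3 reads in each. Rpl39l had 0 to 7 reads and Rpl3l 0 to 4. Rpl30, Rpl34 and Rps27, which belong to every ribosome, had 10 to 34, 5 to 27 and 2 to 35 reads. Exact copies elsewhere in mm9 covered 83.3% of the 50-base coding positions of Rpl30, 71.5% of Rpl34, 100% of Rps27 and 87.4% of Rpl26, and these low counts were not read as absence of the mRNA. Of the paralogues with the suffix l, only Rps27l was thus expressed among the 4 in the files.

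Reads of 50 bases were counted only where they mapped to 1 place, and ribosomal protein genes have many processed pseudogenes. Of 72 members with a coding sequence, 61 had an exact copy elsewhere in mm9 for at least 50% of their 50-base coding positions, and 27 for all of them. The median share was 90.8%, against 0.0% in 76 mitochondrial ribosomal protein genes. Rps12 (mean 756 CPM) and Rps27 (2 to 35 reads) both had copies of every position, and levels of single members are uncertain. Copies covered under 25% of positions in 4 members, among them Rpl4, Rpl8 and Rps3.

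From E10.0 to E10.5, ribosomal protein mRNAs as a group were lower in wild-type limb buds, by small amounts. The median log2 change of the 69 tested members was -0.166, against -0.009 over all 12393 tested genes, and 64 members lay below 0, against 51.8% of all genes. Members called at an adjusted p of at most 0.1 and a fold of at least 1.2 numbered 5, all lower, among them Rplp1, Rpl10a, Rpl13a and Rplp0. This is 5 of 69 beside 4.74% of all tested genes called lower, and 0 members were called higher beside 5.39%. At an unadjusted p under 0.05, 21 members were lower and 0 higher. For this and all later counts at that p, the share of all tested genes was not computed.

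Rplp1 and Rplp0 are proteins of the stalk that recruits translation factors to the ribosome. Rplp1 was counted at 563, 720 and 592 CPM in the 3 wild-type embryos at E10.0 and at 488, 385 and 314 at E10.5. No embryo at E10.5 reached the lowest at E10.0, and the log2 change was -0.66 (SE 0.212, adjusted p = 0.00732, edgeR exact test). Rplp0 ran from 1870, 2210 and 1920 CPM to 1680, 1540 and 1370, a log2 change of -0.39 (SE 0.113, adjusted p = 0.0745), again without overlap.

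Rpl10a, which has been tied to translation of selected mRNAs, went from 844, 930 and 848 CPM to 749, 725 and 675. Its log2 change was -0.29 (SE 0.0638, adjusted p = 0.0311). Rpl13a, a reference gene in many quantitative PCR studies, went from 990, 1120 and 1000 CPM to 914, 827 and 768 (log2 change -0.31, SE 0.0920, adjusted p = 0.0713). In both genes every E10.5 embryo lay below every E10.0 embryo.

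Such separation was the rule for the group, with 44 of 69 members whose wild-type E10.5 values all lay below the E10.0 values, beside 20.4% of all tested genes. The call count was less stable than the direction. A fit of only replicates 1 to 3 kept every wild-type embryo and changed only the mutants' part in the shared spread, scaling and filter. In it the count was 15, beside 7.01% of all tested genes called lower, and the 5 were among these 15. It was 0 without wild-type replicate 2 at E10.0 or without wild-type replicate 3 at E10.5, 1 without wild-type replicate 2 at E10.5, 2 without wild-type replicate 3 at E10.0, and 8 without mutant replicate 1 at either stage. The share of all tested genes called with a sample left out is not given here, so these counts do not single out the members. The median stayed between -0.190 and -0.129 in all 14 of these fits.

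In the mutants the group was lower at E10.5 as well. All 69 tested members had a log2 change below 0, with a median of -0.174 against -0.005 over all tested genes, of which 51.0% lay below 0. Members called lower numbered 9, 4 large and 5 small subunit genes, beside 8.4% of all tested genes, and 0 were called higher beside 10.8%. At an unadjusted p under 0.05, 29 were lower. Of the 9 called in mutants and the 5 called in wild type, 3 were shared, Rplp0 and Rplp1 among them, which is 3 of 9 and 3 of 5.

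Rps2, a small subunit protein at the mRNA entry channel, had the smallest p. It was counted at 1890, 2120, 2100 and 1930 CPM in mutant replicates 1, 3, 4 and 5 at E10.0 and at 1470, 1510, 1710 and 1810 in replicates 1, 2, 4 and 5 at E10.5. The groups did not overlap, and the log2 change was -0.31 (SE 0.0827, adjusted p = 0.00309). Rps21 went from 232, 257, 269 and 221 CPM to 182, 210, 206 and 209, also without overlap (log2 change -0.28, SE 0.0807, adjusted p = 0.0106). Rps14, the small subunit gene whose reduced dose underlies the anaemia of human 5q- syndrome, went from 641, 749, 660 and 569 CPM to 484, 550, 553 and 555 (log2 change -0.29, SE 0.0943, adjusted p = 0.0152).

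Other called members overlapped between stages in the mutants. Rplp1 ran from 349, 480, 609 and 442 CPM to 256, 339, 377 and 376, with a log2 change of -0.48 (SE 0.211, adjusted p = 0.0164), and replicate 1 at E10.0 was the low one. Rps12, which takes part in cell competition in flies, ran from 741, 816, 950 and 831 CPM to 530, 629, 739 and 772 (log2 change -0.32, SE 0.144, adjusted p = 0.0195). Rpl12, a protein of the stalk base, ran from 800, 857, 965 and 885 CPM to 625, 664, 793 and 823 (log2 change -0.27, SE 0.112, adjusted p = 0.0259). For these 3 genes replicates 4 and 5 were the highest mutant embryos at E10.5.

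Rplp0 was called in the mutants too (log2 change -0.33, SE 0.172, adjusted p = 0.0393). Rplp0 was counted at 1480, 1870, 2200 and 1860 CPM at E10.0 and at 1170, 1370, 1730 and 1600 at E10.5. Rpl41, whose protein is the smallest of the ribosome, was called with a log2 change of -0.31 (SE 0.179, adjusted p = 0.0713). In total, 7 of 69 members had mutant groups without overlap, E10.5 lower, beside 8.91% of all tested genes.

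**Figure D2:**
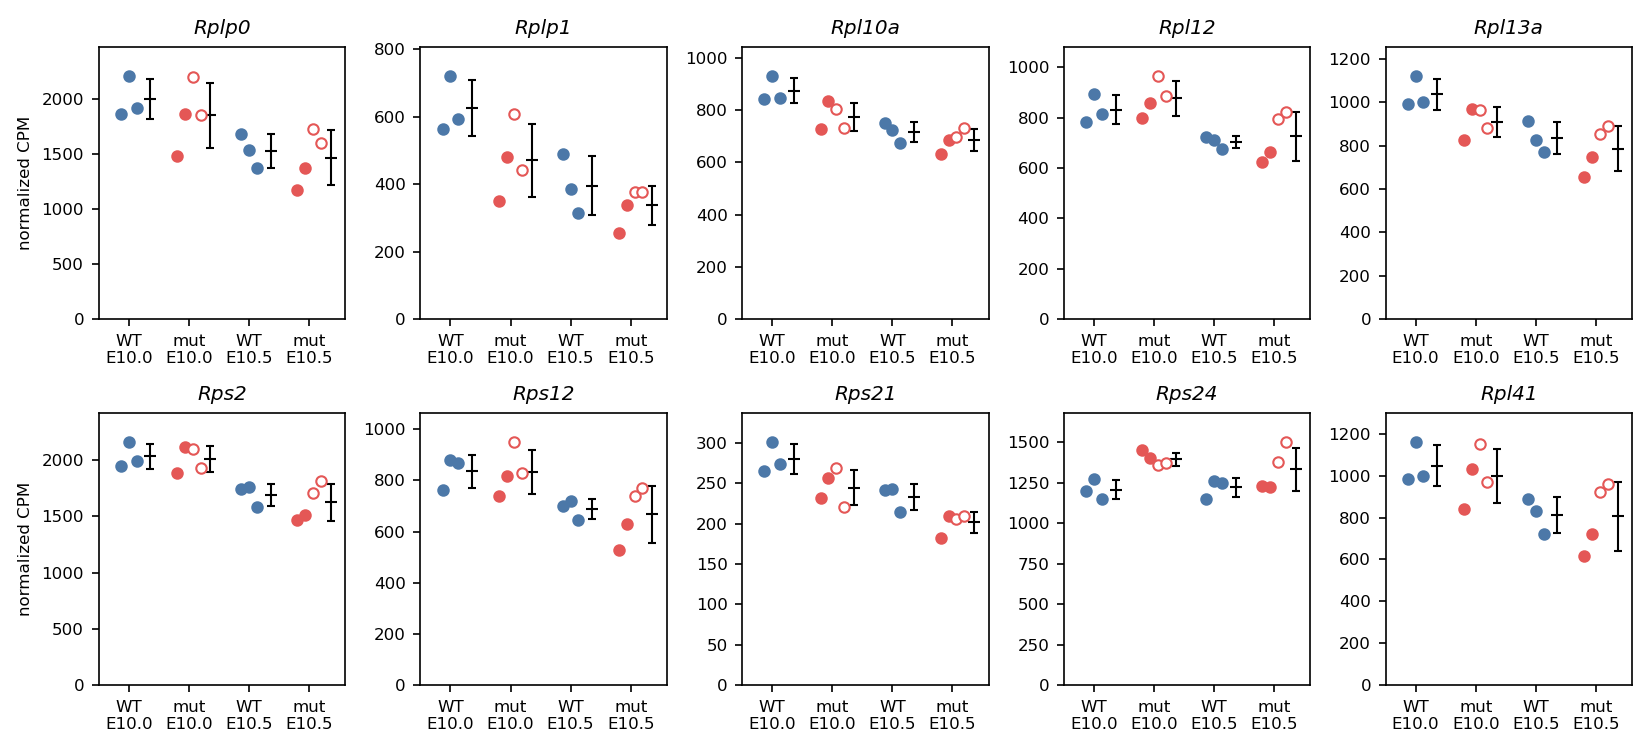
Normalised CPM of 10 members in every embryo (blue, wild type; red, mutant; open, mutant replicates 4 and 5), with mean ± SD of each group in black. Rplp1 falls from 563 to 720 in wild type at E10.0 to 314 to 488 at E10.5, and Rps24 stays between 1150 and 1270 in wild type.

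The mutant count depended on single libraries. It was 1 without mutant replicate 1 at E10.5, 2 without replicate 4 at E10.0, 5 without replicate 3 at E10.0, 14 without replicate 4 at E10.5, 19 without replicate 1 at E10.0 and 21 without replicate 5 at E10.5. These counts too are given without the share of all tested genes called in the same fits, and do not single out the members. With replicates 4 and 5 left out it was 28, beside 7.79% of all tested genes called lower, the median was -0.261, and the 9 were among the 28.

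**Figure D3:**
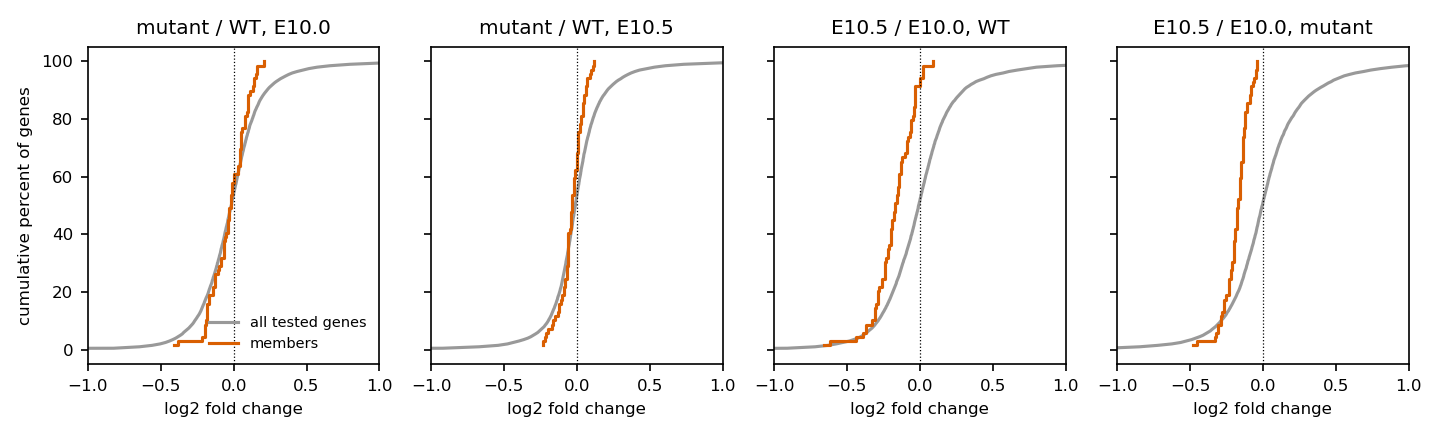
Cumulative percent of genes (vertical axis) by log2 fold change (horizontal axis, drawn from -1 to 1) for the 69 tested members (orange) and all 12393 tested genes (grey) in 4 comparisons. The members' curve is steeper and crosses the grey one near 0 between genotypes (medians -0.019 and -0.030) and lies mostly to its left between stages (medians -0.166 and -0.174).

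Genes of ribosomal RNA synthesis and processing were called lower at E10.5 more often than tested genes as a whole. Of 76 tested genes of RNA polymerase I and ribosomal RNA processing, 27 were called lower in wild type and 50 in mutants, with 0 called higher in either (medians -0.22 and -0.30), beside 4.74% and 8.4% of all tested genes called lower. The counts were 26 and 52 with replicates 1 to 3. Ddx21, a helicase of this process, went from 359 ± 27.5 CPM (SD, n = 3) to 292 ± 19.5 in wild type (log2 change -0.30, SE 0.0842, adjusted p = 0.0206). In mutants it went from 441 ± 21.8 (n = 4) to 302 ± 15.3 (log2 change -0.55, SE 0.0503, adjusted p = 5.76e-10). Ncl, encoding the nucleolar protein nucleolin, had a log2 change of -0.26 in wild type (SE 0.0656, adjusted p = 0.0523), under the fold threshold, and fell by 0.46 in mutants (SE 0.0576, adjusted p = 2.62e-07).

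Of 76 mitochondrial ribosomal protein genes, whose products make the separate ribosome of mitochondria, 7 were called lower in wild type and 6 in mutants, with medians of -0.15 and -0.12 and with 69 and 71 below 0. Against 4.74% and 8.4% of all tested genes, the mutant count with all samples was no higher than the background. With replicates 1 to 3 the counts were 10 and 13 of 76, beside 7.01% and 7.79% of all tested genes. In that fit both counts were above the background. Of 7 further cytosolic ribosomal protein genes that the name pattern missed, among them Rpsa and Fau, 0 were called by the edgeR exact test, and all 7 lay below 0 in both genotypes (medians -0.21 and -0.19). In mutants Rpl7l1 (adjusted p = 0.0264) and Gnb2l1 (adjusted p = 0.0838) passed the adjusted p and stayed under the fold threshold. With replicates 1 to 3, 1 of the 7 was called lower in wild type and 6 in mutants. Of 25 translation factors and other TOP mRNAs, 0 were called in wild type and 4 lower in mutants (medians -0.04 and -0.12), beside 4.74% and 8.4% of all tested genes called lower. With replicates 1 to 3 the counts were 0 and 5. Eef1a1, the most used elongation factor, was at 12000 ± 323 CPM and 11700 ± 291 in wild type at E10.0 and E10.5.

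Of 20 genes that control TOP mRNA translation or belong to the Myc family, 3 were called lower in wild type and 7 in mutants, beside 4.74% and 8.4% of all tested genes. None was called higher. With replicates 1 to 3, 3 were called lower in wild type, and 7 lower and 1 higher in mutants. Mycn, the Myc-family factor of limb mesenchyme, fell from 142 ± 7.05 CPM (SD, n = 3) to 102 ± 5.48 in wild type (log2 change -0.48, SE 0.0608, adjusted p = 5.59e-05). In the mutants it went from 125 ± 11.8 (n = 4) to 78.1 ± 5.93 (log2 change -0.68, SE 0.0846, adjusted p = 1.81e-13). Of 14 tested p53 targets, which respond when ribosome assembly is disturbed, 3 were called higher and 2 lower in wild type, and 2 higher and 2 lower in mutants. All tested genes were called higher at 5.39% and 10.8% and lower at 4.74% and 8.4%. With replicates 1 to 3, 3 targets were called higher and 2 lower in wild type, and 2 higher and 3 lower in mutants.

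Between genotypes no member passed the test. At E10.0 the median log2 change of the 69 members was -0.019, against -0.017 over all tested genes. Members called numbered 0 in each direction, beside 3.33% of all tested genes called higher and 3.28% called lower, by the edgeR exact test. At an unadjusted p under 0.05, 1 member was higher and 3 were lower. DESeq2 and the edgeR quasi-likelihood test also called 0. Single members ran from -0.41 to 0.21.

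At E10.5 the median was -0.030, against -0.010 over all tested genes, and single members ran from -0.23 to 0.12. Again 0 members were called, beside 2.19% of tested genes called higher and 1.54% called lower, with 0 higher and 2 lower at an unadjusted p under 0.05, and with 0 by DESeq2 and by the quasi-likelihood test. The genes with the smallest p were Rps14 (log2 change -0.23, SE 0.0608, adjusted p = 0.324), Rps21 (-0.21, SE 0.0753, adjusted p = 0.333) and Rpl15 (-0.15, SE 0.0600, adjusted p = 0.669). Rps14 and Rps21 were lower in every mutant than in every wild-type embryo at this stage. For Rps14 the wild-type embryos were at 653, 634 and 598 CPM, and the mutants at 484, 550, 553 and 555. Of 69 members, 5 were lower without overlap, beside 6.4% of all tested genes, and 0 were higher, beside 6.59%.

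At E10.0 the smallest p belonged to Rplp1, whose mutants at 349, 480, 609 and 442 CPM reached into the wild-type range of 563 to 720 (log2 change -0.41, SE 0.197, adjusted p = 0.145). Rps24 was higher in every mutant, at 1450, 1400, 1360 and 1370 CPM, than in wild type at 1200, 1270 and 1150 (log2 change 0.21, SE 0.0474, adjusted p = 0.161). It was 1 of 4 members that were higher without overlap at E10.0, beside 8.07% of all tested genes, and 2 members were lower without overlap, beside 9.78%. Rps21 followed with a log2 change of -0.20 (SE 0.0845, adjusted p = 0.231). Of the 76 RNA polymerase I and processing genes, 4 were called higher in mutants at E10.0 and 0 lower, among them Utp20 (log2 change 0.50, SE 0.191, adjusted p = 0.0121), Ddx21 (0.30, SE 0.0719, adjusted p = 0.0228) and Ncl (0.28, SE 0.0718, adjusted p = 0.0280). At E10.5 none of the 76 was called. With replicates 1 to 3, 12 were called higher and 1 lower at E10.0. In that fit 10.2% of all tested genes were called lower, against 3.28% with all samples, and the share called higher was not computed. Mycn was lower in mutants at E10.5 (log2 change -0.38, SE 0.0703, adjusted p = 0.00200) and had a log2 change of -0.18 at E10.0 (SE 0.0768, adjusted p = 0.263).

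A few other genes of these lists differed between genotypes. The snoRNA host genes Snhg8 and Snhg6 were lower in mutants at E10.0 (log2 change -0.44, SE 0.184, adjusted p = 0.0847) and E10.5 (-0.51, SE 0.195, adjusted p = 0.0450). Mrpl14 was lower at E10.0 (-0.38, SE 0.105, adjusted p = 0.0608). Pmaip1, a p53 target that promotes cell death, was higher at E10.5 (1.10, SE 0.180, adjusted p = 0.0182) and was the single p53 target called between genotypes with all samples. With replicates 1 to 3, 2 p53 targets were called lower at E10.0, beside 10.2% of all tested genes. In the same fit 2 were called higher at E10.5, where the share of all tested genes was not computed. Rmrp, a non-coding RNA of ribosomal RNA processing, and Rn45s were called higher at E10.5 (log2 changes 4.30 and 3.07, adjusted p = 0.0269 and 0.0141). The groups overlapped for both, and with replicates 1 to 3 neither was called. Rn45s took 0.331% and 0.391% of counted reads in mutant replicates 1 and 2, within the wild-type range of 0.244% to 0.478%, and 2.32% and 8.05% in replicates 4 and 5.

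No member passed the test of whether its stage effect differed between genotypes. The interaction was called for 0 of 69 members by the quasi-likelihood test, beside 0.186% of all tested genes, with a lowest adjusted p of 0.950 and 0 members at an unadjusted p under 0.05. DESeq2 called 0 too. Without replicates 4 and 5 the median interaction of the members was -0.120 on the log2 scale (all tested genes 0.001), and 0 were called. In that fit 16 members were at an unadjusted p under 0.05, with no share over all tested genes to set beside them.

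Mutant replicates 4 and 5 differed from the other mutants in more than Rn45s. At E10.5, members were on the median 0.238 higher on the log2 scale in replicates 4 and 5 than in replicates 1 and 2, against -0.005 over all tested genes, and 62 of 69 were higher. At E10.0 the median difference was 0.033, with 39 of 69 higher. Set against wild type, the members' median at E10.0 was 0.005 in replicates 4 and 5 and -0.063 in the other mutants. At E10.5 these medians were 0.107 and -0.142, with 49 and 3 of 69 members above 0. For the members, replicates 4 and 5 were thus no farther from wild type on the median than the other mutants. Large over small subunit levels gave a ratio of 1.589, 1.593, 1.602 and 1.586 in these 4 libraries and 1.512 to 1.547 in the other 10. Members higher in replicates 4 and 5 than in every other embryo of their stage, at both stages, were Rpl7a, Rpl14, Rpl23a, Rpl28, Rpl32 and Rpl35, 6 of 69 beside 4.25% of all tested genes. These 6 belong to the large subunit. Lower at both stages was Rps15a, 1 of 69 beside 7.93% of all tested genes, and so was Rps4x on chromosome X.

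Rpl35, a protein at the exit tunnel, was at 678 and 609 CPM in replicates 4 and 5 at E10.0, and at 449 to 547 in the other 5 embryos of the stage. At E10.5 it was at 593 and 629 against 364 to 487. Rps15a, a small subunit protein, was at 450 and 442 CPM against 577 to 658 at E10.0, and at 466 and 498 against 570 to 642 at E10.5. Rps4x, counted with chromosome X kept, was at 1380 and 1370 CPM against 1660 to 1790, and at 1410 and 1460 against 1610 to 1820. The labels give no reason for the difference between these libraries, and its part in the genotype result was not tested beyond leaving them out.

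Without mutant replicates 4 and 5, members were called lower between genotypes at E10.0 about as often as all tested genes. With replicates 1 to 3, the only mutants at this stage were replicates 1 and 3. In that fit 7 of 69 members were called lower, beside 10.2% of all tested genes. They were Rplp2, Rpl36, Rplp1, Rps29, Rps26, Rpl29 and Rpl8. Called higher were 0 members, and the share of all tested genes called higher was not computed. Changes went both ways, with 40 of 69 members below 0, beside 47.5% of all tested genes. At an unadjusted p under 0.05 stood 25 members, of which 12 were lower and the rest higher. Rps24 and Rps27a (log2 change 0.26 each, adjusted p = 0.0174 and 0.0252, edgeR exact test) were higher and missed only the fold threshold. Rplp2, the second stalk protein, had the smallest adjusted p (log2 change -0.61, adjusted p = 0.00482), and Rpl36 the largest change (-0.76, adjusted p = 0.0122). Rplp2 was at 233, 294 and 253 CPM in wild type, at 139 and 196 in mutant replicates 1 and 3, and at 309 and 251 in replicates 4 and 5. The mutants of replicates 4 and 5 thus lay inside or above the wild-type range. At E10.5 the same fit called 1 member lower, Rpl29 (log2 change -0.31, adjusted p = 0.0884), beside 1.68% of all tested genes. There 66 of 69 members lay below 0, beside 49.1% of all tested genes, and the median was -0.136 against 0.004 over all tested genes. With all samples the median at this stage was -0.030.

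**Figure D4:**
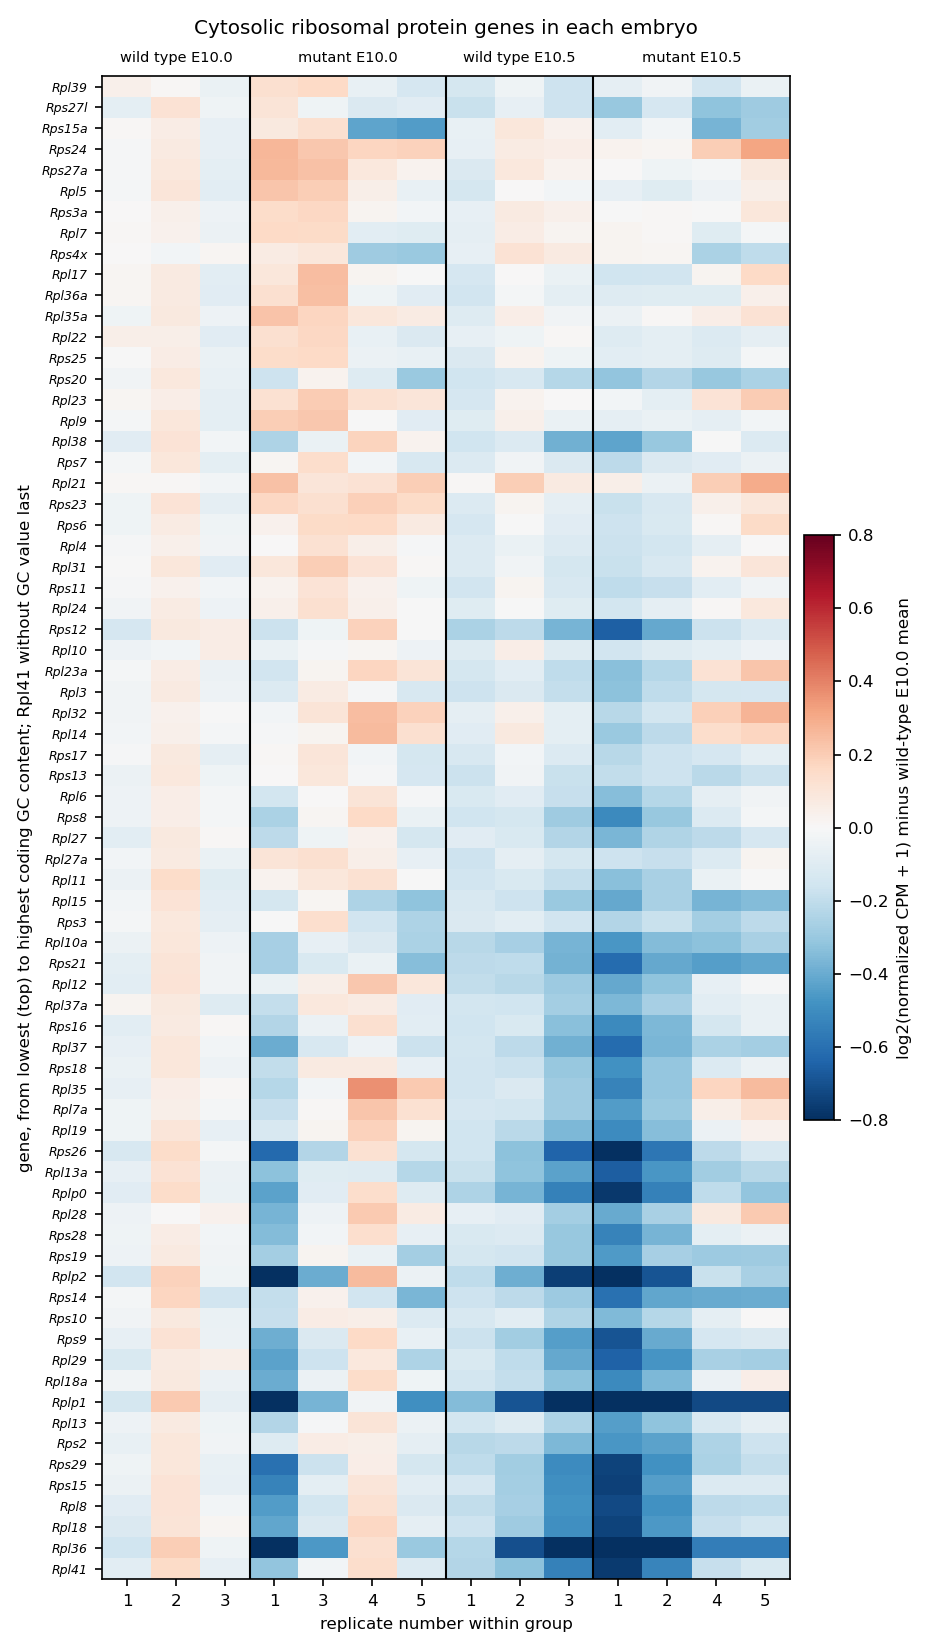
Each cell is log2(normalised CPM + 1) of 1 member (72 shown, ordered by coding GC content from 44.2% at the top) in 1 embryo (14 columns, numbered by replicate) minus the wild-type E10.0 mean. Blue is lower and red higher, and colours stop at 0.8 either way. Blue deepens towards the bottom in most embryos at E10.5, least in mutant replicates 4 and 5 and wild-type replicate 1, and in mutant replicate 1 at E10.0.

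Differences between embryos followed the GC content of the coding sequence, which ran from 45.5% to 61.3% over the autosomal members (median 53.3%, other tested genes 53.2%). Across 68 members with a coding sequence, Spearman's rho between GC content and the log2 change from E10.0 to E10.5 was -0.817 in wild type and -0.644 in mutants. Between genotypes it was -0.653 at the earlier and -0.370 at the later stage. Across 11791 other genes, rho was -0.357, -0.0864, -0.427 and -0.146. These are descriptions across genes measured in the same libraries, which share depth and preparation, so the genes are not independent and no p is given.

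In wild type, the 17 members under 50% GC had a median stage change of -0.0339 and the 20 at 55% or more had -0.297. Other genes in these ranges were at 0.0631 and -0.111. In the mutants the members were at -0.118 and -0.228, other genes at 0.0153 and -0.0316. The relation turned round in the libraries that stood apart: between replicates 4 and 5 and the other mutants, rho over the members was 0.719 at the earlier and 0.640 at the later stage. Over other genes it was 0.486 and 0.485.

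A fit that removed each library's trend on GC content, added after the data were seen, was set beside the quasi-likelihood fit without it. Stage calls in wild type were 2 in each, Rplp1 and Rpl10a, and in mutants 8 and 7, with the 7 among the 8. The members' medians were -0.138 and -0.168, with 67 and 68 of 68 members below 0. The fit did not remove the relation with GC content among the members, for which rho was -0.540 in wild type and -0.570 in mutants after it. Between genotypes with replicates 1 to 3, calls at E10.0 went from 6 to 1, Rplp2, and the median from -0.042 to -0.004. At the later stage the calls were 0 in both fits and the median went from -0.136 to -0.138, with 68 of 68 members below 0. The part of GC content in the stage and genotype differences was not tested further.

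**Figure D5:**
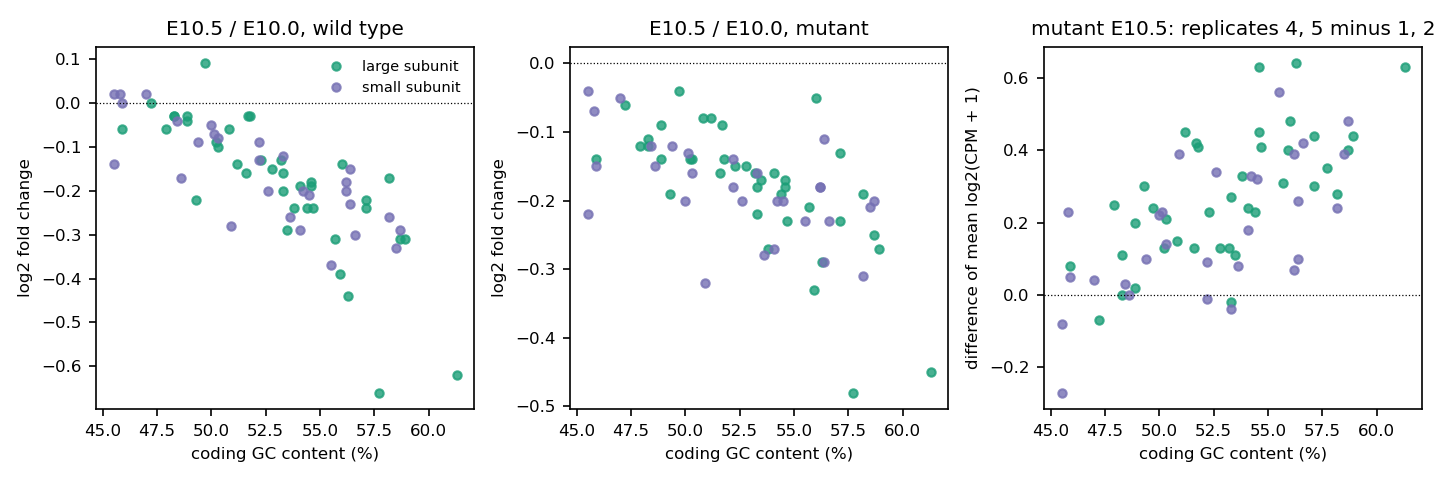
Each point is 1 autosomal member (green, large subunit; purple, small subunit) by coding GC content in percent. Left and centre, log2 fold change from E10.0 to E10.5 in wild type and mutants (Spearman's rho -0.817 and -0.644); right, mean log2(CPM + 1) of mutant replicates 4 and 5 minus replicates 1 and 2 at E10.5 (rho 0.640).

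Members with few and with many copies elsewhere were both lower at E10.5. The 4 members with copies for under 25% of positions had stage changes from -0.31 to -0.09 in wild type (median -0.206) and from -0.27 to -0.14 in mutants (median -0.208). The 25 autosomal members with copies for every position had medians of -0.141 and -0.161. Between genotypes the medians of these 4 and 25 members were -0.100 and 0.044 at E10.0.

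The most variable members over the 14 samples were Rpl36, Rplp1 and Rplp2. The SD of log2(CPM + 1) was 0.494 for Rpl36, 0.419 for Rplp1 and 0.389 for Rplp2, and Rpl36 had the highest coding GC content, 61.3%. Rpl36, a large subunit protein, ran from 61.3 CPM in mutant replicate 1 at E10.5 to 199 in wild-type replicate 2 at E10.0, a ratio of 3.25. Its stage change in wild type was -0.62 (SE 0.247, adjusted p = 0.122), and the 3 wild-type embryos at E10.5, at 148, 106 and 86.6 CPM, lay under the 155 to 199 of E10.0. Rpl10 on chromosome X was far steadier, from 1110 to 1290 CPM (SD 0.0620), with a log2 change of -0.05 in wild type (SE 0.0616, adjusted p = 0.813).

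Members known from mouse developmental mutants were not called in any comparison with all samples. In mice, reduced Rpl38 gives the tail-short phenotype with skeletal patterning defects, Rpl24 the belly-spot-and-tail phenotype, and Rps19 and Rps20 dark skin. Rpl38 was at 213, 245 and 224 CPM in wild type and 191, 219, 257 and 231 in mutants at E10.0 (log2 change -0.02, SE 0.106, adjusted p = 0.960). At E10.5 it was at 203, 210 and 174 against 169, 184, 226 and 210 (log2 change 0.01, SE 0.124, adjusted p = 0.997). All 6 of the list, with Rpl27a and Rps7, had a stage change below 0 in both genotypes (medians -0.15 and -0.15). With replicates 1 to 3, Rpl27a was called lower in mutants (log2 change -0.28, adjusted p = 0.0104).

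Rpl5 and Rpl11, which bind MDM2 together with 5S rRNA and so link ribosome assembly to p53, had stage changes of -0.06 and -0.16 in wild type and of -0.14 and -0.22 in mutants, none called. For Rpl11 in mutants the adjusted p of 0.0630 passed and the fold did not. With replicates 1 to 3 both were called lower in mutants, Rpl5 with a log2 change of -0.28 (adjusted p = 0.0185) and Rpl11 with -0.35 (adjusted p = 0.00299). The 5 members that are often used as reference genes had a median of -0.31 between stages in wild type, where Rplp0 and Rpl13a were called. Between genotypes their medians were -0.11 and then -0.06 by stage, with 0 called by the edgeR exact test. Rps18 was at 748, 825 and 754 CPM in wild type at E10.0 and at 696, 689 and 628 at E10.5. Its log2 change of -0.21 (SE 0.0653, adjusted p = 0.259) did not pass. Rpl32 was at 608 to 661 CPM in the 6 wild-type embryos, and Rps29 had a stage change of -0.33 in wild type (SE 0.101, adjusted p = 0.167).

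Rps6, the S6 kinase target, was at 1460, 1560 and 1460 CPM and then 1360, 1490 and 1400 in wild type. Its log2 change of -0.07 (SE 0.0509, adjusted p = 0.721) was among the small ones. Rpl3, the peptidyl transferase centre protein, had a stage change of -0.16 in each genotype (SE 0.0399 and 0.0626, adjusted p = 0.287 and 0.151), and Rpl22, which also acts in T cell development, had -0.03 and -0.12. Rps27l had a log2 change of -0.22 in mutants (SE 0.0651, adjusted p = 0.0302), under the fold threshold, and every mutant at E10.5 lay below every mutant at E10.0, where the values were 102 to 119 CPM. Of the X-linked members, tested with chromosome X kept, Rpl36a and Rpl39 had stage changes of -0.08 and -0.11 in wild type, and Rps4x had 0.04, with 0 of the 4 called in the 4 comparisons.

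Markers of other cells moved with stage and genotype, and their part in the results on ribosomal proteins was not tested. Of 5 macrophage markers tested, 4 were called higher at E10.5 in each genotype. The summed level of the 5 was 3.76 to 7.12 CPM in wild type at E10.0 and 14 to 17 at E10.5. In mutants it was 8.28 to 11.4 and then 16.1 to 24.7. Between genotypes, 3 of the 5 were called higher in mutants at the earlier stage and 0 at the later one. The median log2 changes of the list were 0.94 and 0.38. With replicates 1 to 3, the counts called higher in mutants were 3 and 1. Of 6 erythroid markers, 0 were called, with summed levels of 2830 to 3750 and 3700 to 5130 CPM in wild type and of 2660 to 4970 and 2780 to 3940 in mutants. Of 4 mesothelium markers, 3 were called higher in mutants at E10.0, where their sum was 10.7 to 23.7 CPM against 2.86 to 4.69 in wild type, and 2 lower at E10.5. Myog and Myf5 of 5 muscle precursor markers were called higher in mutants at E10.0, and Myog lower at E10.5, with the list at 74.6 to 110 CPM in all groups. Of 8 ectoderm markers, 1 was called lower at E10.0, and of 7 endothelial markers 0 were called between genotypes. Erbb3, the 1 neural crest marker of 5 that passed the filter, was called lower at E10.5. Of the limb mesenchyme markers 4 were called lower in mutants at E10.0, and 3 lower and 1 higher at E10.5.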

How the data were processed

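Per the labels and the methods, both forelimb buds of 1 embryo were pooled for each of 14 poly(A) libraries, sequenced unstranded as single reads of 50 cycles. The authors aligned reads to mm9 with TopHat2 2.0.13 and deposited raw counts of uniquely mapped reads per RefSeq gene from HTSeq. Starting from these counts, chromosomes X, Y and M were dropped and the 12393 genes that reached 1 CPM in 3 or more libraries were retained. TMM factors, common and tagwise dispersion (prior.df 10) and the exact test of edgeR 4.0.16 in R 4.3.3 followed the study. Genes were called at a Benjamini-Hochberg adjusted p of at most 0.1 and a fold of at least 1.2. The interaction used edgeR's quasi-likelihood F test, and DESeq2 1.42.0 was an alternative. Normalised CPM are TMM-scaled, and the SE of a log2 change comes from the replicate variances of log2(CPM + 1). Total counts of 34066930 to 61691258 per library mean that counting error is small beside the spread between embryos. Replicate numbers were shared between groups but were not used to pair samples in the main tests, and whether they mark pairs was not settled.

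Members and gene lists were chosen with earlier results of these data known. Named were Smad4, Rn45s, members called in each comparison (at most 8, or the 3 with the smallest p where fewer than 3 were called), the 3 highest and 3 lowest per length, the 3 most variable, X-linked members, members of 5 short lists, and genes of other lists called between genotypes (at most 3 per list and comparison). Others named in replicates 1 to 3, or as apart in replicates 4 and 5, were chosen after their values were seen. Coding sequences came from GENCODE M1 on mm9 and promoters from RefSeq GRCm38.p6. The exact test and the quasi-likelihood interaction test were checked on simulated data, with planted changes larger than the members' median changes. The other alternatives were not checked in this way. Results for some single genes are not reported here, although the genes count in the totals. Alternatives were other tests, scalings and filters, X, Y and M kept, each stage or genotype fitted apart, replicates 1 to 3, a replicate block, the GC trend removed, and each sample left out.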

Additional observations from a re-analysis of the deposited data

Results flagged for a closer look

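The lowest and highest embryo were compared with the rest in 80 groups of 4 mutant embryos, and in 5 groups an embryo stood apart by a gap to its nearest neighbour over Dixon's 95% critical share of the group's range. About 1 in 20 does so by chance. Of the 5, 3 were low values of mutant replicate 1 at E10.5: Rps14 at 484 normalised CPM (others 550 to 555), Rps19 at 372 (others 418 to 425) and Rps21 at 182 (others 206 to 210). Rpl36a was high in mutant replicate 5 at E10.5, at 469 normalised CPM (others 425 to 427). Smad4 was at 45.9 normalised CPM in mutant replicate 3 at E10.0 (others 36.9 to 38.4), far under the wild-type level.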

How the results depend on the processing

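The median log2 change of members kept its sign between stages under every alternative (-0.190 to -0.129 in wild type and -0.261 to -0.116 in mutants). Between genotypes it ran from -0.093 to 0.024 at E10.0 and from -0.138 to 0.032 at E10.5, so its sign depended on the setting. At the later stage the values of -0.136 and -0.138 came from replicates 1 to 3, without and with the GC trend removed. No member was called higher under any alternative, and the interaction was called for 0 members throughout.

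For counts of called members, the cause of a change was not tested unless given. The counts below stand without the share of all tested genes called in the same fit, so a change in them may not be particular to the members. At E10.0 between genotypes (0 called), replicates 1 to 3 gave 7 by the exact test and 6 by the quasi-likelihood test, or 1 with the GC trend removed too, and leaving out single samples gave 0 to 2. At E10.5 replicates 1 to 3 gave 1, and single samples 0 to 0. For the wild-type stage contrast (5), the quasi-likelihood test gave 2, with the GC trend removed 2, upper-quartile factors 1, no filter 2, each genotype fitted apart 15, replicates 1 to 3 15 (13 by quasi-likelihood), and single samples 0 to 8. For the mutant stage contrast (9), upper-quartile factors gave 4, replicates 1 to 3 28 (23 by quasi-likelihood, 27 with the GC trend removed), and single samples 1 to 21. Calls of named members were the same in 429 tests, weaker in 66 and stronger in 5, and reversed in 0.

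Between genotypes the replicate block gave 7 members at the earlier stage and 0 at the later one, with 0 for the interaction. The share of all tested genes called in that fit is not given here. Replicates 4 and 5 have no wild-type partner, so within a block they hold no genotype difference. Same-numbered samples correlated at 0.174, -0.188, -0.260 and -0.0512 in their deviations from group means. Samples of a stage with different numbers ran from -0.316 to 0.377. With so few samples, these values cannot decide whether the numbers paired them. The share of counted reads was 5.74%, 5.59%, 5.26% and 5.05% (wild type and mutants at E10.0, then at E10.5) on autosomal members alone, by construction lower than over all members (6.12%, 5.95%, 5.64% and 5.41%).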
